A study of Drosophila melanogaster with 16 samples.

Results

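The 8 genes described here belong to the Notch pathway of Drosophila melanogaster: the ligands Delta (Dl) and Serrate (Ser), the receptor Notch (N), the DNA-binding protein Suppressor of Hairless (Su(H)), and the Enhancer of split genes E(spl)m6-BFM, E(spl)mbeta-HLH, E(spl)m3-HLH and E(spl)m7-HLH. They were chosen by name from earlier results of these data, on their levels and 24 h rhythms in groups of clock neurons, and they are 8 of the 17299 genes in the single-cell table and 5 of the 8467 genes in the bulk table. The single cells were GFP-positive cells sorted from brains of male and female flies in which UAS-EGFP was driven by Clk856-GAL4 together with the split GAL4 pair R11B03-AD and VT002670-DBD, so that the dorsal DN3 clock neurons were labelled along with the other clock neurons. The components of the pair take their regulatory regions from the clock genes cwo and vri, and no age of the flies is given in the sources used here. Flies were kept in cycles of 12 h light and 12 h dark and taken at 6 times, counted from lights on as Zeitgeber time (ZT), in 10 libraries of droplet 3' sequencing with unique molecular identifiers (UMIs). The bulk libraries came from GFP-positive cells of UAS-EGFP flies with R11B03-AD and R77H08-DBD, with R11B03-AD and VT055068-DBD, or with the split driver SS00367 (split-0367 in the labels), sparse drivers that each label some DN3 neurons, at ZT02 only, with 2 libraries per driver.

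In Notch signalling, a ligand on the surface of one cell binds the Notch receptor of its neighbour. The receptor is then cut, and its inner part enters the nucleus and joins Su(H) to switch on target genes. The best known targets lie side by side in the Enhancer of split complex, which encodes repressors of the basic helix-loop-helix (HLH) class and small proteins of the Bearded family (BFM). In development the pathway sorts neural from other fates, and it also acts in glia and in mature neurons.

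The 4 Enhancer of split members sit within 1 cluster on chromosome arm 3R (dm6), which runs from position 25997621 at E(spl)mdelta-HLH to 26041008 at E(spl)m8-HLH. E(spl)mbeta-HLH spans 26005046 to 26006023 on the minus strand. E(spl)m3-HLH spans 26021823 to 26023127, E(spl)m6-BFM 26032911 to 26034047 and E(spl)m7-HLH 26037038 to 26038019, all on the plus strand. Each of the 4 is annotated as 1 exon. Dl (19302731 to 19326217) and Ser (27172090 to 27194267) lie on the minus strand of 3R, N on the X chromosome (3134870 to 3172221) and Su(H) on 2L (15039488 to 15043334), and no exon of the 8 genes overlaps an exon of another gene.

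The 23921 cells held between 1001 and 24985 UMIs each, 421 to 5751 cells and 3518519 to 32385361 UMIs per library, and 55 barcodes occurred in more than 1 library. Cells with at least 4 UMIs over the clock genes Clk, per, tim and cwo were taken as clock cells, which gave 10916 cells, 194 to 1899 per library. This rule takes tim and per, which cycle themselves, and the share of cells it took ran from 25.9% at ZT02 replicate 2 to 68.3% at ZT14 replicate 2. Within them, the neuropeptide genes Pdf, AstA and CNMa marked 318 cells, 730 cells and 1.28% of all cells, CG15537 with the receptor gene Dh44-R1 marked 251, the transcription factor gene RunxA 408 and the growth factor gene Pvf3 928, while 7945 carried none of these markers and 29 carried several. The fitted peak of vri, a clock gene of known evening phase, fell at ZT13.9 in the clock cells, with a swing of 2.28 on the log2 scale.

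Levels are UMIs per 10000 UMIs (TP10K) over all cells of a group in a library. A rhythm was tested on UMI sums per library by fitting a cosine and a sine of 24 h in edgeR (quasi-likelihood F test), with p-values adjusted by Benjamini-Hochberg over all genes tested, and called at an adjusted p under 0.05. The swing is the log2 ratio of fitted peak to fitted trough. Because the 8 genes were picked with results of the same data known, these adjusted p-values place a gene among all genes and are no independent support. Libraries of the same time carry different dates in their labels. Nothing else in the sources used here says how the flies of the libraries were grouped, so p-values measure the spread between libraries.

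Among the 8 genes, E(spl)m6-BFM and Dl had a called rhythm in the clock cells, with higher levels from ZT10 to ZT18 than from ZT22 to ZT06. The 2 of 8 called compare with 1.09% of all genes tested. The median swing was 1.48 over the 8 genes, which were chosen with these rhythms known, and 0.37 over all genes tested. The median over the 8 takes in uncalled genes of few UMIs, and nothing is read from it or from the count about the genes as a set. E(spl)m6-BFM stood out in CG15537/Dh44-R1 cells, Dl in RunxA and Pvf3 cells, and N, E(spl)mbeta-HLH and E(spl)m3-HLH in clock cells that carried glial rather than neuronal markers. Su(H) had similar pooled levels in all groups, and Ser and E(spl)m7-HLH were close to the limit of detection.

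Dl, the transmembrane ligand that activates Notch on adjacent cells, was at its highest level in the RunxA and Pvf3 cells, although 4994 of the 9132 Dl UMIs in clock cells lay in clock cells without a marker. Over all libraries its level was 5.22 TP10K in RunxA cells, where 77.7% of cells held a Dl UMI, and 5.65 TP10K in Pvf3 cells, where 73.4% did. In Pdf, AstA, CNMa and CG15537/Dh44-R1 cells it was 0.0596, 0.0599, 0.0352 and 0.208 TP10K. Clock cells without a marker held 0.802 TP10K and cells under 4 clock UMIs 0.244 TP10K, with a Dl UMI in 4.94% of the latter. After thinning every cell to 3000 UMIs, which left out 12 RunxA and 228 Pvf3 cells, 65.2% of RunxA and 70.6% of Pvf3 cells still held a Dl UMI. Since Dl was chosen with these levels known, their order is a description.

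Against the other clock cells of the same libraries, with the library as a block, Dl was 2.5 ± 0.10 higher on the log2 scale in RunxA cells (SE, edgeR adjusted p = 1.23e-13) and 2.61 ± 0.10 higher in Pvf3 cells (adjusted p = 1.16e-14), in all 10 libraries in each case. RunxA and Pvf3 cells, with ranges over libraries of 2.25 to 8.62 and 3.27 to 7.23 TP10K, kept no single order within libraries. Pvf3 cells were higher in every library of ZT02, ZT06 and ZT22, as with 4.19 against 2.25 TP10K at ZT02 replicate 2. RunxA cells were higher at ZT10 (8.62 against 5.72 TP10K) and ZT14 replicate 1 (8.56 against 7.21 TP10K). At ZT14 replicate 2 and ZT18 the groups were nearly equal. The difference between them was not tested. In the other groups Dl was lower, with differences of -4.03 ± 0.28 in Pdf, -4.13 ± 0.27 in AstA, -4.95 ± 0.56 in CNMa and -2.57 ± 0.34 in CG15537/Dh44-R1 cells, all called. With 13 UMIs in CNMa cells, Dl passed the minimum there only through the other clock cells, and nothing is read from that call. No alternative setting changed a call of a Dl level in the 6 marker groups.

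In RunxA cells, Dl was lowest at ZT02, with 2.38 and 2.25 TP10K in the replicate libraries. It was 3.43 and 4.72 TP10K at ZT06 and 8.62 TP10K in the single ZT10 library. It was 8.56 and 7.10 TP10K at ZT14, 6.91 TP10K in the single ZT18 library, and 3.49 and 4.19 TP10K at ZT22. The 4 libraries from ZT10 to ZT18 all lay above the other 6. The fitted swing was 1.70 with a peak at ZT13.7 (edgeR adjusted p = 0.00141), and Dl was the 1 of 2 genes of the 8 called there among those with enough UMIs to test, against 1.77% of all genes. Every alternative tried kept this call, with adjusted p-values of at most 0.00876. The share of RunxA cells with a Dl UMI was 54.8% at ZT02 and 77.2% at ZT06, then 93.4% at ZT10, 82.9% at ZT14 and 80.8% at ZT18, with 79.8% at ZT22. Between libraries collected on the same date, Dl at ZT14 was 3.60 times (95% counting interval 2.52 to 5.26) and 3.15 times (2.55 to 3.93) its ZT02 level, and at ZT18 it was 2.02 times (1.48 to 2.79) its ZT06 level. At ZT22 it was 0.887 (0.687 to 1.14) of its ZT06 level and 0.404 (0.337 to 0.484) of its ZT10 level.

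In Pvf3 cells, Dl was also lowest at ZT02 and high from ZT14 to ZT18, with a smaller excursion. It was 3.27 and 4.19 TP10K at ZT02, 4.33 and 4.82 TP10K at ZT06 and 5.72 TP10K at ZT10. It was 7.21 and 7.23 TP10K at ZT14, 6.91 TP10K at ZT18, and 5.56 and 4.85 TP10K at ZT22. The 3 libraries from ZT14 and ZT18 were the highest and those of ZT02 the lowest. The swing was 0.81 with a peak at ZT15.1 (edgeR adjusted p = 0.0255), called in 1 of 2 testable genes of the 8 against 0.677% of all genes. This call was lost without ZT06 replicate 1 (adjusted p = 0.0548), ZT14 replicate 1 (0.0604), ZT14 replicate 2 (0.104), ZT18 (0.0630) or ZT22 replicate 2 (0.0553), with 8 clock UMIs (0.194), with Clk and cwo alone (0.0848) and with doubled marker minimums (0.950), in a range of 0.000838 to 0.950. With the collection date as a block, 119 rather than 43 genes were called in these cells, and Dl had an adjusted p of 0.00784.

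**Figure D1:**
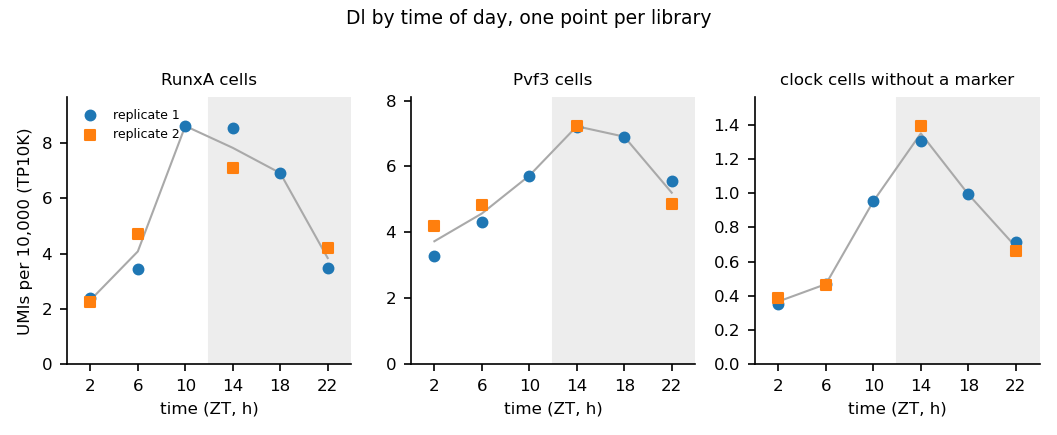
Level of Dl (UMIs per 10000 UMIs) against time of day (ZT, h) in RunxA cells, Pvf3 cells and clock cells without a marker, 1 point per library, with a line through the means of each time and the dark phase shaded. The RunxA libraries run from 2.25 at ZT02 to 8.62 at ZT10, the Pvf3 libraries from 3.27 at ZT02 to 7.23 at ZT14, and the cells without a marker from 0.349 at ZT02 to 1.39 at ZT14.

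The same course was present at a lower level in the clock cells that carried no marker, where Dl was 0.349 and 0.384 TP10K at ZT02, 0.471 and 0.464 TP10K at ZT06 and 0.952 TP10K at ZT10. It was 1.31 and 1.39 TP10K at ZT14, 0.994 TP10K at ZT18, and 0.712 and 0.661 TP10K at ZT22. Over all clock cells the lowest library held 0.575 TP10K, the median 0.856 TP10K and the highest 2.06 TP10K. The swing over all clock cells was 1.5 with a peak at ZT14.8 (edgeR adjusted p = 0.00154). With the date as a block, 347 rather than 105 genes were called in the clock cells, and Dl had an adjusted p of 0.00960. Among clock cells with no more neuronal than glial and haemocyte UMIs, a split given with N, Dl was not called (adjusted p = 0.864, the highest over its alternatives, against 5.41e-24 as the lowest). In Pdf, AstA and CG15537/Dh44-R1 cells no Dl rhythm was called, with swings of 0.70 (adjusted p = 0.910), 2.34 (0.186) and 1.85 (0.885) on few UMIs. Without ZT10 replicate 1, the AstA swing was 3.87 with an adjusted p of 0.0369, over a range of 0.0341 to 0.377 in its alternatives.

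Whether the Dl rhythm differed between a group and the other clock cells was tested as an interaction with the library as a block. The size given is the swing of the fitted difference curve. It has no sign and takes in phase as well as swing, so it is not a gain in swing. In RunxA cells this size was 0.58 (adjusted p = 0.870), and 0 of 2 testable genes were called against 0.553% of all genes. In Pvf3 cells it was 0.82 (adjusted p = 0.109), with 0 of 2 called against 0.913% of all genes. This was called with DESeq2 (adjusted p = 0.0104), with doubled marker minimums (0.000386), with a minimum of 8 clock UMIs (0.0124) and without ZT02 replicate 1 (0.0374), with no filter on low counts (0.0131) and with the minimum on both groups together (0.00774), in a range of 0.000386 to 0.600. In AstA cells the Dl difference was 2.66 (adjusted p = 0.139), and it was called with no filter (0.0124), with doubled marker minimums (0.0391), with the minimum on both groups together (0.0267) and without ZT10 replicate 1 (0.0304), in a range of 0.0124 to 0.626.

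Ser, the other Notch ligand, was rarely detected in clock cells. Only 72 UMIs in 44 of 10916 clock cells were found, and none in the 6 marker groups, where a count of 0 allows shares of cells with a UMI of up to 0.323% (Pvf3) to 1.20% (CG15537/Dh44-R1). Of the 44 cells, 56.8% held the haemocyte gene Hml and 56.8% the haemocyte gene NimC1, against 0.469% and 0.331% of the other clock cells. The synaptic gene nSyb was in 2.27% of them, against 87.8% of the others. Of the 72 UMIs, 68 lay in cells with no more neuronal than glial and haemocyte UMIs, and the part of haemocytes in the Ser level was not tested. The swing of Ser in the clock cells was 3.05 (adjusted p = 0.610), with 3 of 10 libraries at 0.

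N, the receptor, was found in 1255 of the clock cells (11.5%), with 0.444 and 0.345 TP10K at ZT02, 0.598 and 0.875 TP10K at ZT06 and 0.455 TP10K at ZT10. It was 0.428 and 0.244 TP10K at ZT14, 0.432 TP10K at ZT18, and 0.484 and 0.685 TP10K at ZT22. The 4 libraries of ZT06 and ZT22 lay above the other 6, and the 24 h swing of 0.76 was not called (adjusted p = 0.684). In cells under 4 clock UMIs the pooled level was 0.734 TP10K. Of the clock cells with an N UMI, 64.4% held Gs2, 29.0% moody and 11.9% repo, genes of glia, against 5.83%, 1.25% and 0.259% of those without. nSyb was in 18.2% of the cells with N and in 96.5% of those without. When clock cells were split by whether they held more UMIs of 3 neuron markers (elav, nSyb and brp) than of 5 glia and 2 haemocyte markers, N was 2.85 to 5.82 TP10K, with a median of 3.79, over the 10 libraries in the 1205 cells with no more neuronal UMIs. In the 9711 cells with more neuronal UMIs it was 0.0442 to 0.123 TP10K, with a median of 0.0665. The split is by markers of cell type, and how many of all genes separate in it was not counted. In the first kind of cell, 79.9% held an N UMI, and the summed glia list was at 10.4 to 24.4 TP10K, against 0.0561 to 0.476 TP10K in the second. The first kind made up 87 of 1490 clock cells at ZT02 replicate 2 and 143 of 1899 at ZT14 replicate 2, the libraries lowest in N. It made up 186 of 1320 at ZT06 replicate 2 and 139 of 878 at ZT22 replicate 2, the highest in N. At ZT14 replicate 1 it was 58 of 402, with N at 0.428 TP10K. The part of these shares in the time course of N was not tested.

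**Figure D2:**
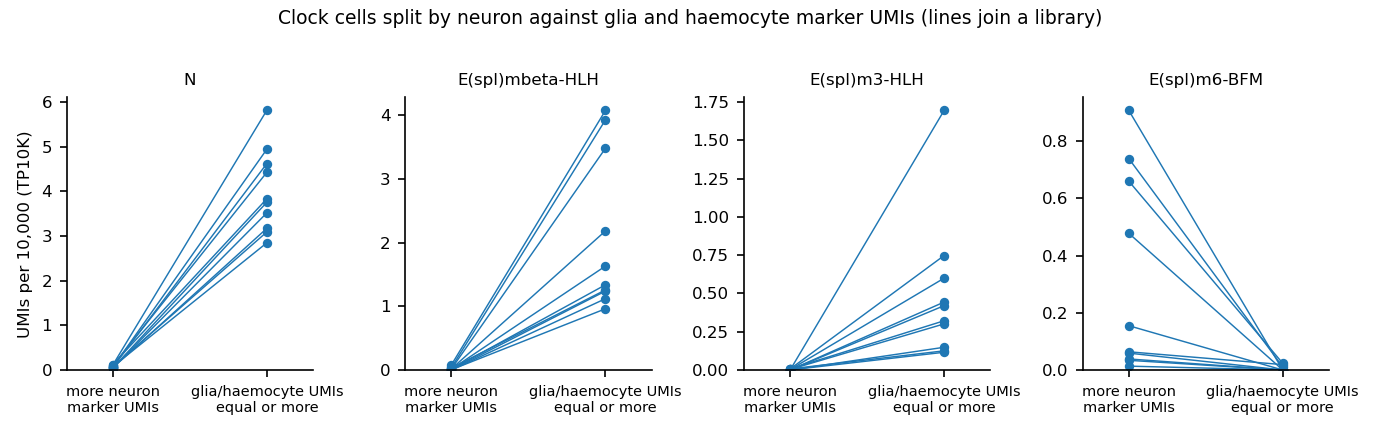
Levels (UMIs per 10000 UMIs) of N, E(spl)mbeta-HLH, E(spl)m3-HLH and E(spl)m6-BFM in clock cells split into those with more neuron than glia and haemocyte marker UMIs (left) and the rest (right), with a line joining the values of a library. N runs from 0.0442 to 0.123 on the left and from 2.85 to 5.82 on the right, E(spl)mbeta-HLH from 0 to 0.0822 and from 0.962 to 4.08, and E(spl)m6-BFM lies higher on the left.

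In the marker groups N was correspondingly rare, with 34 UMIs in Pdf, 18 in AstA, 6 in CNMa, 1 in CG15537/Dh44-R1, 17 in RunxA and 7 in Pvf3 cells. Against the other clock cells N was lower, with log2 differences of -2.69 ± 0.50 in Pdf, -4.52 ± 0.21 in AstA, -4.56 ± 0.38 in CNMa, -6.09 ± 0.54 in CG15537/Dh44-R1, -3.36 ± 0.32 in RunxA and -4.95 ± 0.30 in Pvf3 cells (SE), all called by edgeR. With under 20 UMIs in each group other than Pdf, N passed the minimum there only through the other clock cells. The glia list moved with it, at pooled levels of 0.0515 to 0.231 TP10K in the 6 groups and 2.43 TP10K in the clock cells without a marker. Among cells with more neuronal UMIs alone, a choice made after seeing the data, the calls in Pdf cells (-0.17, adjusted p = 0.824) and RunxA cells (-0.74, adjusted p = 0.208) were lost and the other 4 were kept. In Pdf cells N had a called rhythm, with a swing of 4.84 and a peak at ZT0.3 (edgeR adjusted p = 0.0172), in the 8 libraries with at least 5 cells. It was 0.204 TP10K at ZT02 replicate 2 (19 UMIs) and 0.133 and 0.0945 TP10K at ZT22 (6 and 3 UMIs). It was 0.0124 TP10K at ZT10 (1 UMI), 0.0172 TP10K at ZT14 replicate 2 (2 UMIs) and 0 in the other 3 libraries. ZT14 replicate 1, with 4 Pdf cells and so not in the fit, held 3 UMIs in 1 cell, or 0.478 TP10K, above every library in the fit. The call was lost without ZT10 replicate 1 (adjusted p = 0.0548, over a range of 0.000186 to 0.0548), the gene had too few UMIs to be tested without ZT02 replicate 2 or with cells of at most 15000 UMIs, and the swing of a gene with libraries at 0 depends on the prior count of the fit. The difference in N rhythm from the other clock cells, in phase and swing together, had a size of 5.88 (adjusted p = 0.0769). This difference was called with doubled marker minimums (0.0308), with 8 clock UMIs (0.0317), with the minimum on both groups together (0.0184) and with no filter (0.0121). It was also called without ZT06 replicate 2 (0.0295) or ZT14 replicate 2 (0.0167), in a range of 0.0121 to 0.176.

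Su(H), the DNA-binding partner of cleaved Notch, was found in all groups at similar pooled levels. Its lowest clock cell library held 0.283 TP10K, its median 0.335 TP10K and its highest 0.401 TP10K. Pooled levels were 0.334 TP10K in Pdf, 0.373 in AstA, 0.287 in CNMa, 0.295 in CG15537/Dh44-R1, 0.358 in RunxA and 0.410 in Pvf3 cells, and 0.293 TP10K in cells under 4 clock UMIs. The swing in the clock cells was 0.21 (edgeR adjusted p = 0.640), and no level or rhythm of Su(H) was called in any comparison. The difference in level from the other clock cells had 95% intervals from 0.01 to 0.46 in AstA, -0.12 to 0.44 in Pdf, -0.47 to 0.18 in CNMa, -0.69 to 0.32 in CG15537/Dh44-R1, -0.35 to 0.34 in RunxA and -0.22 to 0.38 in Pvf3 cells (log2). In contrast to N, Su(H) was higher in clock cells with more neuronal UMIs than in the other clock cells. Its pooled levels were 0.354 TP10K (libraries from 0.305 to 0.443) and 0.165 TP10K (libraries from 0.106 to 0.275). How many of all genes separate in this split was not counted.

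E(spl)m6-BFM, a Bearded family member of the Enhancer of split complex, had the widest daily excursion of the 8 genes. In the clock cells it was 0.0345 and 0.0128 TP10K at ZT02 (7 and 17 UMIs), 0.0302 and 0.134 TP10K at ZT06 (13 and 141 UMIs) and 0.829 TP10K at ZT10 (1038 UMIs). It was 0.579 and 0.694 TP10K at ZT14, 0.425 TP10K at ZT18, and 0.0510 and 0.0577 TP10K at ZT22. The 4 libraries from ZT10 to ZT18 were all above 0.4 TP10K and the other 6 all below 0.14 TP10K. The swing was 5.19 with a peak at ZT13.3 (edgeR adjusted p = 0.0111), and 6.02 with the date as a block (adjusted p = 0.0164). Taking clock cells by Clk and cwo alone gave 5.32 (adjusted p = 0.0207), and the call was kept in every fit of the gene, at adjusted p-values of at most 0.0371. Between libraries of 1 date, the level at ZT14 was 16.8 times (7.99 to 42.3) and 54.4 times (33.8 to 93.7) that at ZT02, and the level at ZT18 was 14.1 times (8.12 to 26.6) that at ZT06. At ZT22 it was 0.430 (0.300 to 0.605) of the ZT06 level and 0.0615 (0.0449 to 0.0824) of the ZT10 level.

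An E(spl)m6-BFM UMI was found in a minority of clock cells at each time, and at this depth a cell without a UMI is not shown to lack the transcript. Of the clock cells, 639 (5.85%) held an E(spl)m6-BFM UMI, and the 109 cells with the most UMIs held 58.9% of them. Among cells under 4 clock UMIs, whose median depth was 3782 UMIs, 0.492% held a UMI. After thinning to 3000 UMIs per cell, which left out 1206 and 5208 cells, the shares were 4.23% of clock cells and 0.372% of the others. The share of clock cells with a UMI was 0.950% at ZT02 and 2.59% at ZT06, then 6.97% at ZT10, 11.9% at ZT14 and 9.30% at ZT18, with 2.44% at ZT22. Cells with the transcript were neuronal by their other genes, as 99.2% held nSyb and 1.72% Gs2, against 86.7% and 13.2% of the other clock cells. Of the 639 cells 6 held an N UMI (0.939%, against 12.2% of the others) and 1 an E(spl)mbeta-HLH UMI. Clock cells were 3.18 ± 0.34 higher than cells under 4 clock UMIs on the log2 scale (edgeR adjusted p = 1.59e-05). E(spl)m6-BFM and Dl were the 2 of the 8 genes called in that comparison, both higher and none lower, against 7.35% of all genes higher and 9.53% lower (16.9% in all). Dl was higher by 1.94 ± 0.23 (adjusted p = 2.82e-05). With a minimum of 8 clock UMIs, N (-1.49, adjusted p = 8.38e-05), E(spl)m3-HLH (-1.21, 0.00647) and E(spl)mbeta-HLH (-1.21, 0.0186) were called lower as well, in ranges over the alternatives of 8.38e-05 to 0.760, 0.00647 to 0.993 and 0.0186 to 0.983.

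By group, E(spl)m6-BFM was highest in CG15537/Dh44-R1 cells. There 85 of 251 cells (33.9%, pooled over libraries and times) held a UMI, at a median depth of 5193 UMIs per cell. It was 0 and 0.159 TP10K at ZT02, 1.68 TP10K at ZT06 replicate 2 and 8.36 TP10K at ZT10. It was 3.89 and 4.90 TP10K at ZT14, 4.31 TP10K at ZT18, and 0.727 and 1.53 TP10K at ZT22. As in all clock cells, the libraries from ZT10 to ZT18 lay above the rest. The share of cells with a UMI was 7.14% at ZT02 and 20% at ZT06, then 48.0% at ZT10, 66.0% at ZT14 and 47.5% at ZT18, with 19.2% at ZT22. The level was 3.58 ± 0.21 above that of the other clock cells (log2, SE, edgeR adjusted p = 8.14e-14), a call that every alternative kept. The swing was 3.64 with a peak at ZT13.2 (adjusted p = 0.00418), in 1 of 3 testable genes of the 8 against 1.36% of all genes. The rhythm call was lost with a minimum of 8 clock UMIs (adjusted p = 0.0719) and with doubled marker minimums (0.180, the highest over its alternatives). The lowest, 6.32e-28, came with the date as a block, where 166 rather than 66 genes were called. That block leaves few libraries to measure the spread, so nothing is read from so small a value.

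In Pdf cells, the ventral neurons that secrete the neuropeptide PDF, E(spl)m6-BFM was 0.0215 TP10K at ZT02 replicate 2, 0 and 0.312 TP10K at ZT06 and 4.17 TP10K at ZT10. It was 1.82 TP10K at ZT14 replicate 2, 0.153 TP10K at ZT18, and 0.0443 and 0 TP10K at ZT22. Only the ZT10 and ZT14 libraries were above 1 TP10K, as was ZT14 replicate 1 at 2.39 TP10K (15 UMIs in 4 cells), which was not in the fit. At ZT10, 336 UMIs came from 11 of 62 cells and 157 of them from 1 cell, without which the level was 2.26 TP10K. At ZT14 replicate 2, 211 UMIs came from 38 of 83 cells, and the highest cell held 57 of them. The swing was 8.43 with a peak at ZT11.4 (edgeR adjusted p = 1.46e-06), and 2 of the 4 testable genes of the 8 were called against 11.1% of all genes. Its level over the day was 1.41 ± 0.44 above the other clock cells (adjusted p = 0.0201), a call lost with DESeq2 (0.243), without the library block (0.0693) and without ZT06 replicate 2 (0.0515), ZT10 replicate 1 (0.127) or ZT14 replicate 2 (0.0784), in a range of 0.00288 to 0.243.

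In AstA cells, named for the neuropeptide allatostatin A, it was 0 TP10K at ZT02 replicate 2, 0.0295 and 0.157 TP10K at ZT06 and 1.10 TP10K at ZT10. It was 2.82 and 1.07 TP10K at ZT14, 0.416 TP10K at ZT18, and 0.0271 and 0 TP10K at ZT22. At ZT14 replicate 1, 32 of the 39 UMIs lay in 1 of 10 cells, and without that cell the level was 0.575 TP10K, which was still above the ZT02, ZT06, ZT18 and ZT22 libraries. The swing was 7.03 with a peak at ZT12.9 (edgeR adjusted p = 1.07e-06), in 1 of 3 testable genes against 7.18% of all genes. Its level did not pass the test against the other clock cells (0.60 ± 0.27, adjusted p = 0.0932), but did without ZT22 replicate 2 (0.0463, in a range of 0.0463 to 0.889).

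CNMa cells held E(spl)m6-BFM in 2 of 7 libraries. At ZT10 it was 1.29 TP10K (126 UMIs in 9 of 83 cells, 42 in the highest), at ZT14 replicate 2 0.0811 TP10K (9 UMIs in 3 of 95 cells), and in the other 5 libraries 0. The fitted swing of 11.24 (peak ZT8.9, edgeR adjusted p = 0.000314, in 1 of 2 testable genes against 6.05% of all genes) depends on the prior count of the fit and rests on the ZT10 library. Without that library the gene had too few UMIs to be tested, and DESeq2 did not call it (adjusted p = 0.796, in a range of 8.44e-27 to 0.796). The fit held no ZT06 library, since these had 1 and 2 CNMa cells, and 1 ZT02 library of 12 cells. The fitted peak thus falls between ZT02 and ZT10, where nothing was measured. CNMa cells were 0.209% of cells at ZT02 replicate 2 and 0.0533% at ZT06 replicate 2, against 2.88% at ZT10 and 3.42% at ZT14 replicate 2. The level differed from the other clock cells by -1.20 ± 0.63 (adjusted p = 0.178), a difference called without ZT10 replicate 1 (-3.56, adjusted p = 0.000140) and with DESeq2 (0.00631), in a range of 0.000140 to 0.918.

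RunxA and Pvf3 cells, the groups richest in Dl, held 4 E(spl)m6-BFM UMIs in 1 of 408 cells and 13 UMIs in 3 of 928 cells. The differences from the other clock cells were -4.81 ± 0.40 and -3.70 ± 0.43 (log2, SE, edgeR adjusted p = 1.02e-08 and 4.50e-07). In both groups the gene passed the minimum of 20 UMIs only through the other clock cells. It could hardly come out other than lower, so these tests add nothing to the counts. Clock cells without a marker ran from 0.0103 TP10K at ZT02 replicate 2 to 0.564 TP10K at ZT14 replicate 2, with 395 of 7945 cells holding a UMI.

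**Figure D3:**
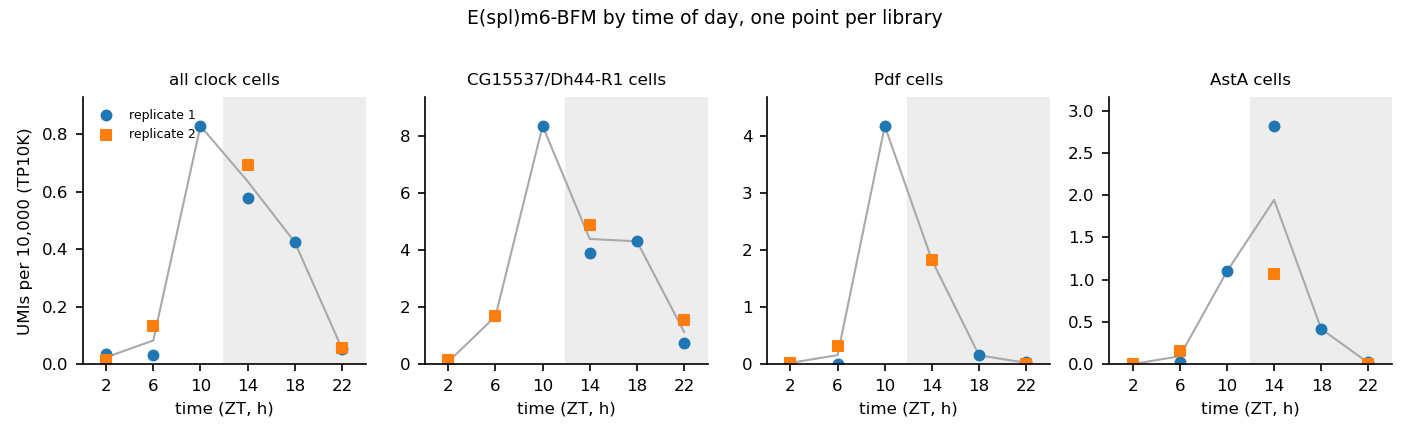
Level of E(spl)m6-BFM (UMIs per 10000 UMIs, axes differ) against time of day (ZT, h) in all clock cells and in CG15537/Dh44-R1, Pdf and AstA cells, 1 point per library with at least 5 cells of the group, with a line through the means of each time and the dark phase shaded. Libraries of ZT10 and ZT14 are high in all panels, reaching 0.829, 8.36, 4.17 and 2.82, and those of ZT02 lie between 0 and 0.159.

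The difference in the E(spl)m6-BFM rhythm from the other clock cells was called in Pdf cells, where it was 4.67 on the log2 scale (edgeR adjusted p = 0.00248, 1 of 4 testable genes against 6.99% of all genes). Without ZT10 replicate 1 it was 4.15 (adjusted p = 0.0798, in a range of 5.17e-05 to 0.0798). In CNMa cells it was 11.04 (adjusted p = 0.00717, 1 of 2 against 3.38%), where the gene could not be tested without ZT10, and the adjusted p ranged up to 0.0311 in the other alternatives. In AstA cells it was 2.74 (adjusted p = 0.221, 0 of 3 against 3.51%) and in CG15537/Dh44-R1 cells 1.62 (adjusted p = 0.365, 0 of 3 against 0.495%). In cells under 4 clock UMIs the E(spl)m6-BFM swing was 3.24 (adjusted p = 0.994), and none of 7 testable genes of the 8 was called against 0.0107% of all genes.

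E(spl)mbeta-HLH, a helix-loop-helix repressor, was found with N rather than with E(spl)m6-BFM. In the clock cells it was 0.109 and 0.0773 TP10K at ZT02, 0.256 and 0.560 TP10K at ZT06 and 0.428 TP10K at ZT10. It was 0.143 and 0.0933 TP10K at ZT14, 0.169 TP10K at ZT18, and 0.234 and 0.489 TP10K at ZT22. The replicate libraries of ZT06 and of ZT22 lay far apart, and the swing of 0.92 was not called (edgeR adjusted p = 0.898). Of the 347 clock cells with a UMI, 75.5% held N, 70.3% Gs2 and 33.7% moody, against 9.40%, 10.7% and 3.48% of the others, and 15.9% held nSyb, against 89.8%. In clock cells with no more neuronal UMIs it was 0.962 to 4.08 TP10K, and in those with more 0 to 0.0822 TP10K. The 6 marker groups held between 0 and 3 UMIs each, and the difference between clock cells and cells under 4 clock UMIs did not pass the test (0.09 ± 0.26, 95% interval -0.42 to 0.59, adjusted p = 0.819).

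E(spl)m3-HLH, of the same class, gave 400 UMIs in 154 clock cells, of which 79.2% held N, 84.4% Gs2 and 57.1% E(spl)mbeta-HLH. It ran from 0.116 to 1.69 TP10K in clock cells with no more neuronal UMIs and from 0 to 0.00719 TP10K in the rest. Both genes were thus low where the neuron markers were high. Against the other clock cells, both were called lower in all 6 marker groups. Among cells with more neuronal UMIs alone, all 6 E(spl)m3-HLH calls were lost (edgeR adjusted p = 0.178 in Pvf3 to 0.936 in RunxA cells). The E(spl)mbeta-HLH calls were lost in CG15537/Dh44-R1 (0.0985) and CNMa cells (0.0515). With so few UMIs in the groups these tests decide little, and what part the glial cells had was not tested further. E(spl)m7-HLH, another repressor of the class, gave 43 UMIs in 25 clock cells, of which 68.0% held nSyb, 28.0% E(spl)m6-BFM and 32.0% E(spl)mbeta-HLH. Its swing of 3.82 was not called (adjusted p = 0.449), and 4 of 10 libraries were at 0.

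**Figure D4:**
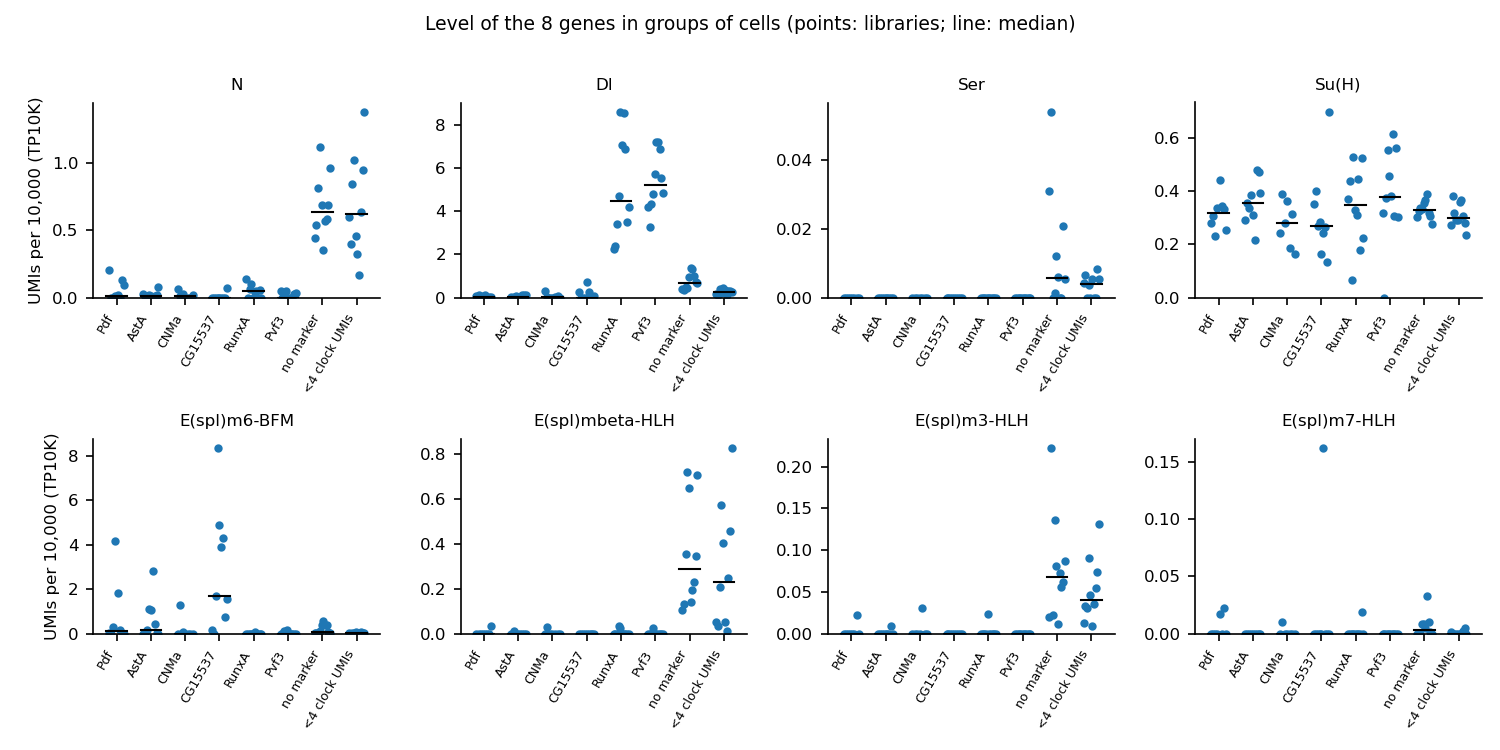
Levels of the 8 genes (UMIs per 10000 UMIs, axes differ) in the 6 marker groups, in clock cells without a marker and in cells under 4 clock UMIs, 1 point per library with at least 5 cells and a bar at the median. Dl is high in RunxA and Pvf3 cells, with medians of 4.46 and 5.20, E(spl)m6-BFM in CG15537/Dh44-R1 cells, with a median of 1.68, and N, E(spl)mbeta-HLH and E(spl)m3-HLH both in clock cells without a marker (pooled 0.661, 0.369 and 0.0636) and in cells under 4 clock UMIs (0.734, 0.297 and 0.0502).

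Over all 8 genes, the level calls against the other clock cells were mostly of lower levels. In AstA cells 5 of 8 were lower and none higher (of all genes 21.4% lower and 3.84% higher, 25.2% in all). In CNMa cells 4 were lower and none higher (18.5% and 6.51%, 25% in all), and in Pdf cells 4 lower and 1 higher (24% and 9.35%, 33.3% in all). In CG15537/Dh44-R1 cells 4 were lower and 1 higher (17.3% and 1.97%, 19.3% in all), in RunxA cells 4 lower and 1 higher (19.2% and 2.07%, 21.3% in all), and in Pvf3 cells 5 lower and 1 higher (23.7% and 4.39%, 28.1% in all). The higher genes were E(spl)m6-BFM in Pdf and CG15537/Dh44-R1 cells and Dl in RunxA and Pvf3 cells. The lower genes were N, E(spl)mbeta-HLH and E(spl)m3-HLH in all 6 groups, Dl in Pdf, AstA, CNMa and CG15537/Dh44-R1 cells, E(spl)m6-BFM in RunxA and Pvf3 cells, and Ser in AstA and Pvf3 cells. Among cells with more neuronal UMIs alone, the E(spl)m3-HLH calls were lost in all 6 groups. So were the E(spl)mbeta-HLH calls in CG15537/Dh44-R1 and CNMa cells and the N calls in Pdf and RunxA cells. Many of the lower calls rested on the filter. Ser, E(spl)mbeta-HLH, E(spl)m3-HLH and E(spl)m7-HLH had 0 to 3 UMIs in each group and passed the minimum of 20 only through the other clock cells, as did E(spl)m6-BFM in RunxA and Pvf3 cells (4 and 13 UMIs), Dl in CNMa cells (13 UMIs) and N outside Pdf cells. Such a gene could hardly come out other than lower, its fitted difference depends on the prior count where the group is at 0, and nothing is read from these counts. The Ser call in AstA cells (-4.99, adjusted p = 0.0285) was lost with DESeq2 (-0.38, 0.947), without the library block (0.147), with at most 15000 UMIs (0.102), with 8 clock UMIs (0.0892) and without ZT02 replicate 2 (0.0679) or ZT22 replicate 1 (0.0562), in a range of 0.0282 to 0.947. The Ser call in Pvf3 cells (-4.95, adjusted p = 0.0383) was lost without the block (0.213), with doubled marker minimums (0.201), with 8 clock UMIs (0.0973), with at most 15000 UMIs (0.0880), with no filter (0.0587) and without ZT02 replicate 1 (0.0565) or 2 (0.0994), ZT10 replicate 1 (0.0625), ZT14 replicate 2 (0.0535) or ZT22 replicate 1 (0.0629), in a range of 0.0368 to 0.213, and DESeq2 turned its direction (0.22, with no adjusted p).

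The remaining genes of a list of 43 Notch pathway genes, 41 of them found by symbol, gave no called rhythm over all clock cells, but some were called within marker groups. Of the 24 testable genes other than the 8, none had a called rhythm over all clock cells by edgeR, against 1.09% of all genes, and their median swing was 0.33. Rhythms of such genes were called for 2 of 18 in AstA cells (7.18% of all genes), 2 of 17 in Pdf cells (11.1%) and 1 of 17 in CNMa cells (6.05%). None was called in CG15537/Dh44-R1, RunxA or Pvf3 cells. Differences in rhythm were called for 2 of 17 in Pdf cells (6.99%), 1 of 18 in AstA cells (3.51%) and none in the other marker groups. In clock cells against cells under 4 clock UMIs, 4 of the 24 were called, which is about the share of all genes (16.9%). Nothing is read from this count about the pathway, and the 4 are named as a description. The target genes E(spl)mgamma-HLH and Hey, both helix-loop-helix repressors, were higher by 2.41 ± 0.58 and 1.73 ± 0.27, and rumi, an enzyme that adds glucose to Notch, by 0.60 ± 0.13, while ct, a homeodomain gene, was lower (-1.51 ± 0.12, log2, SE). Of this list, E(spl)m4-BFM and E(spl)m5-HLH, the neighbours of E(spl)m3-HLH and E(spl)m6-BFM in the complex, are listed at 0 in every cell, as are nct, Brd, Ocho and BobA. As nct was at 13.2 to 27.3 in every bulk library, a 0 in the single-cell table does not show that a gene was not expressed.

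The values just inside and just outside the clock cell minimum give the effect of the rule: cells with exactly 4 clock UMIs held 0.101 TP10K of E(spl)m6-BFM, 0.503 of Dl and 1.17 of N, and cells with 3 held 0.0619, 0.442 and 1.04 TP10K. The neuron marker list was at 19.3 to 48.5 TP10K in the libraries of the 6 marker groups, which were thus neuronal by these genes.

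As a description of likeness over 63 profiles of group and library, which share libraries and depths, the genes closest to Dl among 6854 were dve (Pearson r 0.889), CARPB (0.887) and CCKLR-17D1 (0.856). Those closest to N were CG2493 (0.954), Mes2 (0.933) and foxo (0.932), and those closest to E(spl)mbeta-HLH nec (0.962), AhcyL2 (0.961) and CG17027 (0.960). E(spl)m6-BFM had no close companion, its nearest being GstE13 (0.562), CG44098 (0.532) and Moe (0.515).

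In the bulk libraries, in which fewer cells of a type and less RNA per cell cannot be told apart, E(spl)m6-BFM was high with 1 driver. Its normalised values were 11.7 and 27.1 in the R77H08 libraries (6 and 24 reads by the steps of the table), 0 and 0 in the SS00367 libraries, and 0.744 (1 read) and 0 in the VT055068 libraries. The groups did not overlap. On the scale of log2(value + 1), R77H08 was 4.04 ± 0.66 above the mean of the other drivers (SE, limma adjusted p = 0.00564), 1 of 5 genes in the table against 2.38% of all genes. The gene reached the minimum of 1 in 2 libraries only through the R77H08 libraries, so that it had to differ, and the test adds nothing to the values. The call was kept by edgeR on the recovered reads (6.18, adjusted p = 0.000400) and lost with a pseudocount of 0.1 (adjusted p = 0.0960), and leaving out either R77H08 library took the gene below the minimum value. These libraries were taken at ZT02, the time of the lowest single-cell levels.

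N was 17.8 and 21.6 in the VT055068 libraries, 1.95 and 9.02 in the R77H08 libraries, and 8.97 and 0 in the SS00367 libraries. VT055068 was the highest in both of its libraries and 2.32 ± 0.83 above the others (limma adjusted p = 0.117), which was called with a pseudocount of 10 (1.04, 0.0405), without R77H08 replicate B (2.76, 0.0194) and without SS00367 replicate A (3.15, 0.0347), in a range of 0.0194 to 0.456. Dl was 3.90 and 2.25 with R77H08, 5.71 and 0.983 with SS00367 and 2.97 and 8.41 with VT055068, and the libraries of the drivers overlapped. Su(H) was 7.79 and 7.89, 6.53 and 4.91, and 7.44 and 10.8 in the same order. E(spl)mbeta-HLH was at 2 reads or fewer in every library. No gene of the 8 was called for SS00367 (0 of 5, against 2.52% of all genes) or for VT055068 (0 of 5, against 8.77%). Of the 21 tested genes of the pathway list other than the 8, 1 was called for SS00367, 2 for VT055068 and 0 for R77H08.

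**Figure D5:**
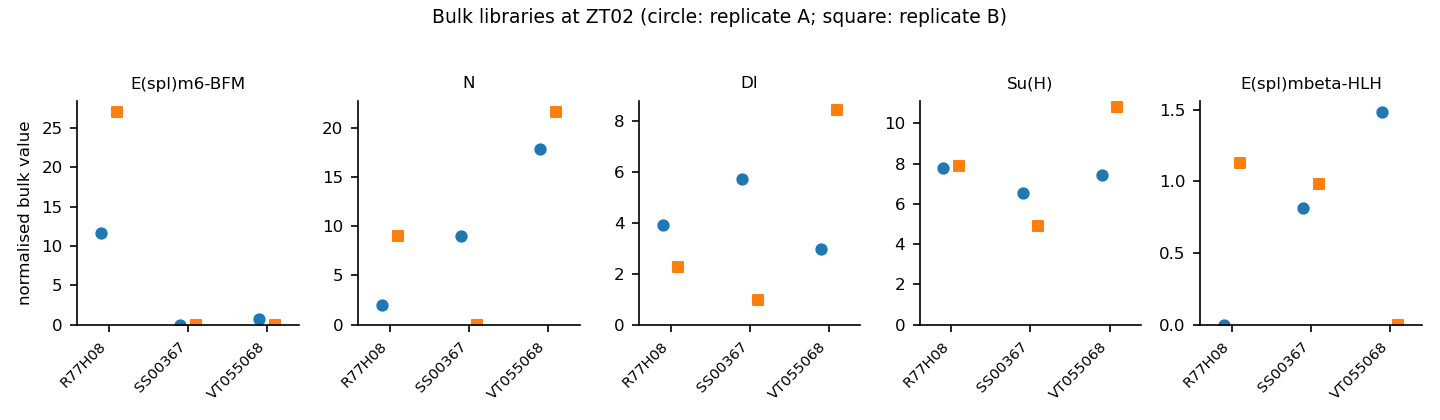
Normalised values of the 5 genes in the bulk table in the libraries of 3 drivers at ZT02, with a circle for replicate A and a square for replicate B. E(spl)m6-BFM reaches 11.7 and 27.1 with R77H08 and at most 0.744 with the other drivers, and N reaches 17.8 and 21.6 with VT055068.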

How the data were processed

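For the single cells the authors deposited counts of UMIs per gene and cell, from 10x 3' libraries processed with Cell Ranger on dm6, without normalization. The submitters' processing notes also name STAR. For the bulk libraries (Smart-seq3) the authors deposited normalized signal values, all whole multiples of 1 step per library (100% within a tolerance of 0.01), which gave 164631 to 505579 reads per library. Versions, annotation and strand use are not given in the sources used here. The study removed doublets in its analysis, not stated to be before deposit, and no doublet caller was run here.

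The 8 genes, the pathway list of 43 genes, the marker lists and the tests were chosen with earlier results of these data known. The text names the 8 genes, the listed pathway genes called in the clock cells' rhythm or level test, and for each of the 8 its 3 nearest genes by Pearson correlation of log2(TP10K + 0.1), of which those of 4 genes are printed. Marker minimums per 10000 UMIs were 100 (Pdf), 20 (AstA), 10 (CNMa), 50 (CG15537) and 20 (Pvf3), and 1 UMI for Dh44-R1 and RunxA. Cells of several groups were left out of all of them.

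UMIs were summed per group and library (at least 5 cells) and tested with edgeR 4.0.16 (R 4.3.3, TMM, at least 20 counts per gene): a 24 h cosine and sine for rhythm, and group with the library as a block for level (called also at 1.5-fold) and for differences in rhythm. For the last, the 20 counts were required in the group's own cells. This was set after results of the 8 genes had been seen, because the minimum on both groups together, kept as an alternative, gave too many false calls on simulated data. The tests kept also gave more false calls on simulated data than the threshold allows for differences in rhythm, for rhythm in several marker groups, Pdf cells most, for some levels and for the bulk contrast simulated. The 95% intervals of differences are 1.96 SE on either side. Bulk values were tested with limma 3.58.1 on log2(value + 1), genes of at least 1 in 2 libraries, each driver against the mean of the others.

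Library dates in the labels pair libraries: residuals of same-date libraries correlated at 0.160 to 0.631 (5 pairs) and those of other dates at a median of -0.166. Alternatives were DESeq2 1.42.0, other size factors, no filter, 8 clock UMIs, Clk and cwo alone, doubled marker minimums, at most 15000 UMIs, marker genes left out, blocks, other pseudocounts and leaving out each library. Intervals of ratios and upper limits of shares cover counting error only (95%). Tables were made in Python 3.11.15 (pandas 2.3.3, scipy 1.17.1, numpy 2.4.6) and drawn with matplotlib 3.10.9. No sequences are printed, since none were at hand.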

Additional observations from a re-analysis of the deposited data

Results flagged for a closer look

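In Pdf cells the 24 h rhythm of E(spl)m6-BFM differed from that of the other clock cells in the edgeR test of the difference itself (4.67 on the log2 scale, adjusted p = 0.00248). The call was kept without each of the other 7 libraries that held at least 5 Pdf cells, and without ZT10 replicate 1 the adjusted p was 0.0798.

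In CNMa cells the rhythm of E(spl)m6-BFM also differed from that of the other clock cells (11.04, edgeR adjusted p = 0.00717), with UMIs in 2 of 7 libraries and 126 of 135 UMIs in the ZT10 library. Without that library it could not be tested, and no ZT06 library had the 5 CNMa cells needed for the fit.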

How the results depend on the processing

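Of the counts of the 8 genes called, 403 stayed within 1.5 times the reported count and 52 did not, and of the values of single genes 2118 kept their direction and their side of the threshold, 51 lost and 29 gained a call, and 3 turned direction. The causes were not tested. For rhythm, the count in AstA cells became 2 with no filter on low counts (1 to 2 with a library left out), in CG15537/Dh44-R1 cells 0 with 8 clock UMIs and 0 with doubled marker minimums, in CNMa cells 0 with DESeq2 (0 to 1 with a library left out), in Pdf cells 1 with at most 15000 UMIs (1 to 2), and in Pvf3 cells 2 with no filter, 0 with 8 clock UMIs, 0 with Clk and cwo alone and 0 with doubled minimums (0 to 1). In clock cells with no more neuron than glia and haemocyte UMIs, 0 genes had a called rhythm and 0 differed in level from cells under 4 clock UMIs, where 8 clock UMIs gave 5 (2 to 3 with a library left out). In cells with more neuron marker UMIs the level counts became 3 in AstA, 3 in CG15537/Dh44-R1, 2 in CNMa, 3 in Pdf and 3 in RunxA cells. With a library left out the level counts ran from 4 to 6 in AstA, 4 to 5 in Pdf and 5 to 6 in Pvf3 cells. For differences in rhythm, no filter gave 2 in AstA, 2 in CNMa, 2 in Pdf and 2 in Pvf3 cells, the minimum on both groups together 1, 2, 2 and 2, doubled marker minimums 1 in AstA, 2 in Pdf and 1 in Pvf3 cells, 8 clock UMIs 2 in Pdf and 1 in Pvf3 cells, and DESeq2 1 in Pvf3 cells, while leaving out a library gave 0 to 1 in AstA, CNMa and Pvf3 and 0 to 2 in Pdf cells. In bulk, R77H08 had 0 with a pseudocount of 0.1 and VT055068 1 with a pseudocount of 10 (0 to 1 each with a library left out).

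Direction turned for E(spl)m3-HLH in CNMa cells among cells with more neuron marker UMIs (0.34, adjusted p = 0.881), for E(spl)mbeta-HLH in clock cells of 8 clock UMIs against the rest (-1.21, adjusted p = 0.0186), and for Ser in Pvf3 cells with DESeq2 (0.22, with no adjusted p).

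With the date as a replicate block, the genes called for rhythm over the whole table were 347 rather than 105 in clock, 166 rather than 66 in CG15537/Dh44-R1, 119 rather than 43 in Pvf3 and 218 rather than 109 in RunxA cells, and the count among the 8 genes was 2, 1, 1 and 1 as before. No call of the 8 genes changed with it, and the CNMa rhythm could not be fitted with that block. The date block leaves few libraries to measure the spread, so the larger counts are not read as more rhythms. Without the library block the level counts were 4 in AstA, 4 in CG15537/Dh44-R1, 4 in Pdf and 5 in Pvf3 cells. With the bulk replicate letter as a block, R77H08 had 1 gene called and the other drivers 0. The letters only share a name, with correlations of deviations of 0.0161 to 0.111. Levels of 0 to 3 UMIs per group, as for Ser, E(spl)m7-HLH and E(spl)mbeta-HLH, limit what these depths can show.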
